A study of Mus musculus with 10 samples.

Results

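Polycomb proteins, histone-modifying enzymes and chromatin remodelers are described here through 59 mouse genes, chosen by symbol with earlier results of these data known, on an Illumina BeadChip with 25697 probes. Of these, 57 had at least 1 probe, out of 16593 genes with a probe that names a single symbol, and together they had 90 probes, while no probe analysed here carried the symbols Rbbp4 and Suv39h1. Probes of the same gene were kept apart: 37 genes had 1 probe, 9 had 2, 9 had 3 and 2 had 4. A probe was called detected on an array when its deposited detection p-value was under 0.01. It was kept for testing when it was detected on both arrays of at least 1 group, which held for 74 of the 90 probes, from 53 genes. The 4 genes with probes but none kept were Cbx6, Suv39h2, Hdac9 and Arid1a.

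There were 10 arrays, 2 in each of 5 groups. Neural stem cells came from female mice (fNSC) or were parthenogenetic (pNSC), that is, derived from embryos with maternal chromosomes only. The piPS-2F group held an induced pluripotent line obtained by forcing Oct4 and Klf4 expression in neural stem cells of parthenogenetic origin (1 label of its second array reads Klf5). Parthenogenetic embryonic stem cells were sorted by their SSEA-1 surface antigen (pESC-B), and the female embryonic stem cells bore the name OG2 (fESC, with titles that read fESC-B), the name of a mouse line that carries an Oct4-driven GFP transgene. The labels give no strain, passage or culture medium, nor how many lines or animals stand behind a group. The series is described as 5 samples run in duplicate, so each p-value below measures the spread between duplicate arrays only, which may be technical.

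Between 65 and 68 of the 90 probes were detected on both arrays of a group (72.2% to 75.6%), against 37.4% to 43.2% of all probes. A marker gene counted as detected in a group when a probe of it was detected on both arrays. All 8 pluripotency markers examined, Pou5f1, Nanog and Zfp42 among them, were detected in piPS-2F, pESC-B and fESC, and 1 of the 8 in each neural group. All 7 neural stem cell markers with a probe were detected in fNSC and pNSC, and 3 or 4 of the 7 in the pluripotent groups. These were Nes, Slc1a3 and Vim, and Olig1 in pESC-B (mean log2 signal 11.18) and fESC (9.22). In the pluripotent groups Fabp7 and Gfap were detected on no array and Olig2 on 1, of pESC-B. Of 5 neuronal markers, Map2 was detected in every group, Stmn2 in the pluripotent groups only and Dcx in pNSC. Of 4 extraembryonic endoderm markers, Gata6 and Sox7 were detected in the pluripotent groups and none in the neural ones. Of 7 fibroblast markers, which a feeder layer could contribute, 3 or 4 were detected in the pluripotent groups and 1 in the neural ones, with Col1a2 and Postn detected on no array and Lum on 1, of piPS-2F. Their summed linear signal was 534 to 1073 on the pluripotent arrays, 683 to 717 in pNSC and 233 to 244 in fNSC, and its part in the results below was not tested. The mean raw intensity was 287 to 327 on the piPS-2F and pESC-B arrays and 476 to 625 on the other arrays, and no label names a batch, so array brightness and group cannot be told apart in any comparison that crosses these sets. In RNA from whole cultures, fewer expressing cells and less RNA per cell cannot be told apart either.

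Polycomb repressive complex 2 (PRC2) places methyl groups on lysine K27 of histone H3 through Ezh1 or Ezh2, held together by Eed and Suz12. Polycomb repressive complex 1 (PRC1) ubiquitinates histone H2A through Ring1 or Rnf2, each joined to 1 Pcgf protein, and canonical PRC1 also holds a Cbx protein, which reads the PRC2 mark, and a Phc protein. In embryonic stem cells both complexes sit on silent developmental genes, and embryonic and differentiated cells are known to use different Cbx, Pcgf and BAF subunits. The BAF (SWI/SNF) complex moves nucleosomes with the ATPase Smarca4 or Smarca2.

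The largest contrast was between pluripotent and neural cells. Values are log2 signals, that is, background-corrected, quantile-normalized intensities on a log2 scale, and a probe was called higher or lower at a limma adjusted p under 0.05, taken over 13564 kept probes, together with a difference of at least 2-fold. In piPS-2F against pNSC, its population of origin, 42 of the 74 probes were called higher (56.8%, against 26.8% of all kept probes) and 10 lower (13.5%, against 25.7%). These calls covered 30 genes with a higher probe and 10 with a lower one, leaving 13 genes with neither, and no gene had both. The median log2 difference of the 74 probes was 1.25, against 0.017 for all kept probes. In pESC-B against pNSC the counts were 41 higher (55.4%, background 25.1%) and 9 lower (12.2%, background 24.7%). For fESC against fNSC, which shares no array with the first comparison, they were 36 higher (48.6%, background 23.5%) and 7 lower (9.46%, background 23.6%).

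A probe can be kept through the 1 group where it is bright, which favours a difference between groups. The same counts were therefore taken over probes detected on both arrays of all 5 groups. Among 57 such member probes, 35 were higher and 4 lower in piPS-2F than in pNSC (61.4% and 7.02%), against 26.3% and 21% of the 7650 such probes overall. The corresponding shares were 50.9% and 5.26% in fESC against fNSC, against 23% and 18.1%. When arrays were scaled to a common median in place of common quantiles, the median of all kept probes moved to -0.46 for piPS-2F against pNSC, -0.35 for pESC-B against pNSC and -0.19 for fESC against fNSC, while that of the members became 0.65, 0.63 and 0.61. The split of higher to lower member calls was then 30 to 14, 31 to 11 and 31 to 8, against 32.2%, 34.6% and 39.9% higher among all called probes.

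**Figure D1:**
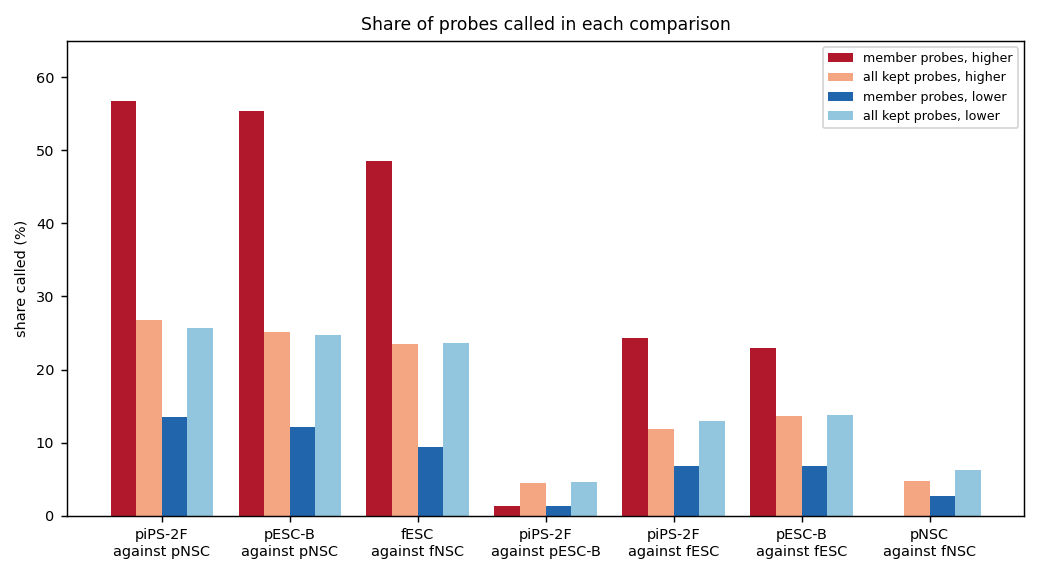
Share of probes called higher or lower in each of 7 pairwise comparisons, in percent of 74 member probes (dark bars) and of 13564 kept probes (light bars); the first group named is set against the second. In the 3 comparisons of pluripotent with neural cells, 48.6% to 56.8% of member probes were called higher, against 23.5% to 26.8% of all kept probes.

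Between the comparisons that share no array, 33 member probes were called higher in both piPS-2F against pNSC and fESC against fNSC, and 7 were lower in both. The 33 make up 78.6% of the higher calls of the first comparison and 91.7% of those of the second, and the 7 make up 70% and 100% of the lower calls. Over all kept probes, 2309 were higher in both, out of 3640 higher calls in the first comparison and 3188 in the second. Lower in both were 2274, out of 3490 and 3207 lower calls. As shares of all 13564 kept probes these are 17% and 16.8%, beside which stand 33 and 7 of 74 member probes. A single member probe, that of Rnf2, was called in opposite directions. In all 40 shared calls the arrays of the groups compared did not overlap, but the fold required for a call already ensured this. The largest gaps between duplicates of a kept member probe were 0.953 in fNSC, 0.852 in pNSC, 0.844 in piPS-2F and 0.646 in fESC. Such gaps are too small for the arrays of a called probe to overlap, so the lack of overlap adds no support to the calls.

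**Figure D2:**
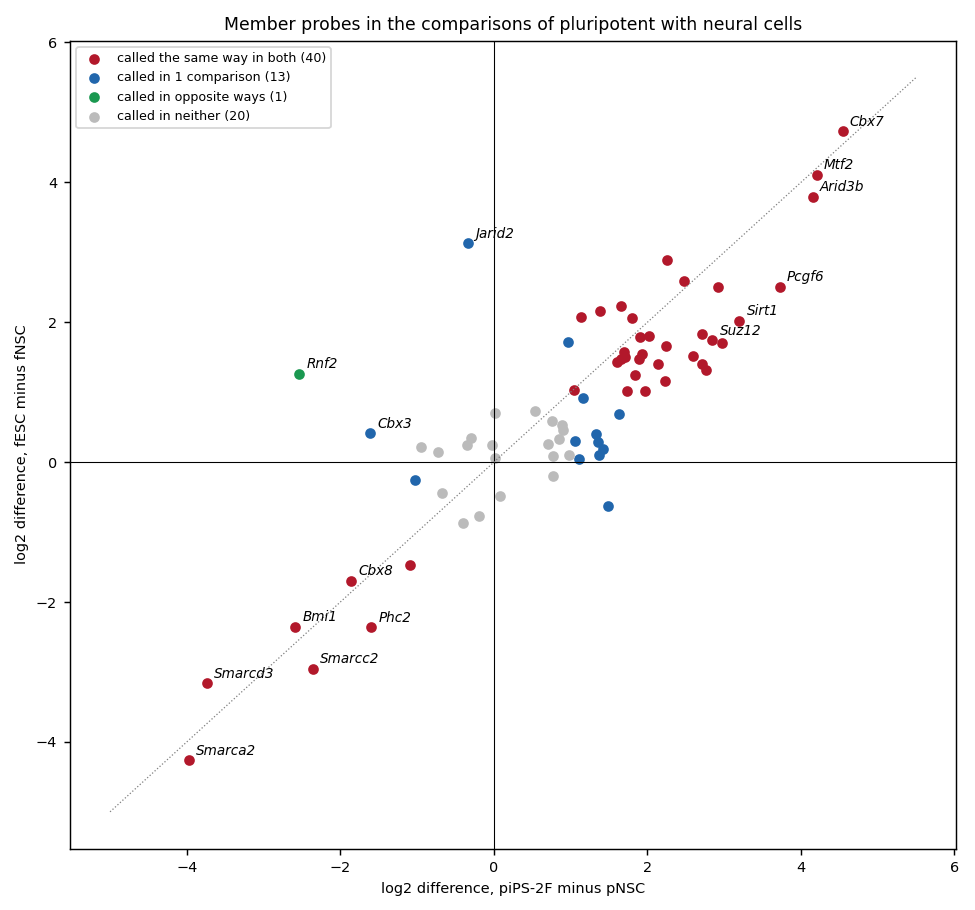
Each point is 1 of 74 member probes, placed by its log2 difference in piPS-2F minus pNSC (horizontal axis) and in fESC minus fNSC (vertical axis); the dotted line marks equal differences. The 40 probes called the same way in both have the same sign on both axes. Cbx7, Mtf2 and Arid3b lie at the upper end and Smarca2 and Smarcd3 at the lower end. Some of the 40, such as Suz12, Pcgf6 and Sirt1, lie off the dotted line by more than 2-fold. Rnf2 is the 1 probe called in opposite ways.

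Within the Cbx, Pcgf and Phc families of PRC1, some members were higher and others lower in pluripotent cells, and all 12 kept probes from 10 PRC1 genes were called in piPS-2F against pNSC, 7 higher and 5 lower. Against fNSC, fESC gave 8 higher and 4 lower calls. Over all kept probes, 26.8% were higher and 25.7% lower in the first comparison, and 23.5% and 23.6% in the second. These shares also stand behind the counts of the other gene groups below. Among the chromobox readers, Cbx7 and Cbx2 were higher and Cbx8 lower in all 3 pluripotent groups than in the neural group of the same origin. Of the Pcgf partners, Pcgf6 and Pcgf2 were higher and Bmi1 (Pcgf4) lower. Of the Phc proteins, which polymerise PRC1, Phc1 was higher and Phc2 lower.

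The start sites of 4 reader and Pcgf genes are shown, since these paralogues moved in opposite directions. Each line is the RefSeq window on GRCm38.p6 from 250 bases before to 50 bases after the annotated start, 5′ to 3′ on the gene's strand, with CG dinucleotides in capitals. Cbx7 lies at chr15:79932597-79932896 (minus strand), Cbx8 at chr11:119040864-119041163 (minus), Pcgf6 at chr19:47050857-47051156 (minus) and Bmi1 at chr2:18676768-18677067 (plus).
Cbx7: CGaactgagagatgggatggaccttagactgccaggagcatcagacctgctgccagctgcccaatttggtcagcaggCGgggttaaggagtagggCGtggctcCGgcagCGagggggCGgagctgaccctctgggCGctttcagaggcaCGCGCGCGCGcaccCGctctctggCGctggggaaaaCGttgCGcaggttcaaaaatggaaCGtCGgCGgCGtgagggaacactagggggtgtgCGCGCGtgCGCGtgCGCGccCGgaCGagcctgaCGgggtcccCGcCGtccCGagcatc
Cbx8: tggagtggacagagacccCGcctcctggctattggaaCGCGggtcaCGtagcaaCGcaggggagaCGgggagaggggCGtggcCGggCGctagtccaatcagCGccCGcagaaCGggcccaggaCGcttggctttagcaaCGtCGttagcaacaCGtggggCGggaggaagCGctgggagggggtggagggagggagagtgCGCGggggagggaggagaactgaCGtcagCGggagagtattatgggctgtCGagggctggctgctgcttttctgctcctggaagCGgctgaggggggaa
Pcgf6: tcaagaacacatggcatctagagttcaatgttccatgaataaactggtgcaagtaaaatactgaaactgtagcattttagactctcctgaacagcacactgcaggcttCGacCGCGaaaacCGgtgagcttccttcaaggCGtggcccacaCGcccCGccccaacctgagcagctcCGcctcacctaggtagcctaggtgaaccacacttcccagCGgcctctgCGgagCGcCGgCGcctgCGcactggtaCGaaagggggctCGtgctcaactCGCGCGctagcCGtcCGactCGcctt
Bmi1: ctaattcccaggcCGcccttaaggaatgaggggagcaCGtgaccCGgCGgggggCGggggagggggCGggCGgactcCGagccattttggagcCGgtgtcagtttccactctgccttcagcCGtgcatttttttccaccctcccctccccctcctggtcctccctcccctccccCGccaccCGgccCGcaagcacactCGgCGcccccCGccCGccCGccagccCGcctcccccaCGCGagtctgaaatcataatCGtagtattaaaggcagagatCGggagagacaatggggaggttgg

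The Cbx7 window held 33 CG dinucleotides, a count reached by 8.56% of all 32851 RefSeq windows of this length, the Cbx8 window 24, the Bmi1 window 23 and the Pcgf6 window 22. All 4 therefore lay far above the median of 7 for all windows, as did the member genes together, whose 71 windows from 52 genes had a median of 28. The median was 23 over 24 windows of genes higher in both comparisons and 29 over 9 windows of genes lower in both. The E-box CACGTG, read on both strands, occurred in 15.5% of member windows and in 7.15% of all windows. The shares were not compared at equal CG counts, and the motif itself holds a CG. It was present in the Cbx8 and Bmi1 windows and not in those of Cbx7 and Pcgf6. The window of Pcgf2, which was higher, also held it, and that of Ring1, which was lower, did not. It occurred in 2 of the 24 windows of genes higher in both comparisons and in 3 of the 9 of genes lower in both. These matches describe the letters in a 300-base window only.

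Cbx7 went from undetected to clearly detected. Its probe gave log2 signals of 9.31 and 9.20 in piPS-2F, 9.78 and 9.54 in pESC-B and 9.66 and 9.61 in fESC. In the neural groups it was detected on no array, at 4.79 and 4.63 in pNSC and 5.00 and 4.79 in fNSC. The 6 pluripotent arrays thus lay far above the 4 neural arrays. Where a group was undetected, a fold is given as a lower bound against the lowest signal of any detected probe. Cbx7 in piPS-2F exceeded pNSC at least 13.3-fold (log2 difference 4.54 ± 0.15 SE, adjusted p = 2.48e-09). It was at least 17.6-fold higher in pESC-B than in pNSC and at least 19.1-fold higher in fESC than in fNSC (4.73 ± 0.15, adjusted p = 1.92e-09).

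Cbx8, another reader, had the reverse pattern, with 6.45 and 6.82 in pNSC and 6.92 and 6.52 in fNSC. It was detected on none of the 6 pluripotent arrays, where its values ran from 4.57 to 5.25. It was at least 2.25-fold lower in piPS-2F than in pNSC (-1.86 ± 0.24, adjusted p = 4.99e-05) and at least 1.75-fold lower in fESC than in fNSC (-1.69 ± 0.24, adjusted p = 0.00011). Cbx2 gave 7.75 and 8.01 in piPS-2F, 7.36 and 6.79 in pESC-B and 6.91 and 6.76 in fESC, against 5.65 and 5.64 in pNSC and an undetected 5.16 and 5.18 in fNSC. It was 4.72-fold higher in piPS-2F than in pNSC (2.24 ± 0.19, adjusted p = 1.8e-06) and 2.70-fold higher in pESC-B than in pNSC (1.43 ± 0.19), a difference of 0.91 under median scaling. In fESC it was at least 2.76-fold higher than in fNSC.

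Pcgf6, the Pcgf protein of a variant PRC1 that binds without the PRC2 mark, was detected on every array. It gave 11.58 and 11.71 in piPS-2F, 11.12 and 11.23 in pESC-B and 10.88 and 10.91 in fESC, against 7.75 and 8.09 in pNSC and 8.52 and 8.26 in fNSC. The lowest pluripotent array exceeded the highest neural one by more than 2 log2 units. The difference was 13.2-fold in piPS-2F against pNSC (3.72 ± 0.16, adjusted p = 1.35e-08), 9.56-fold in pESC-B against pNSC and 5.68-fold in fESC against fNSC (2.51 ± 0.16). Pcgf2 (Mel18) was detected on all 6 pluripotent arrays, at 6.35 to 7.25, and on no neural array, where it gave 4.76 to 4.97. Its bounds were at least 2.02-fold, 2.26-fold and 3.14-fold in the same order.

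Bmi1, required for the self-renewal of adult neural stem cells, gave 9.12 and 8.80 in pNSC and 8.47 and 8.41 in fNSC. In piPS-2F it gave 6.34 and 6.39, in pESC-B 6.29 and 5.43 and in fESC 5.77 and 6.40, with 1 of the 2 arrays detected in each of the last 2 groups. All neural arrays lay above all pluripotent arrays. Bmi1 was 6.03-fold lower in piPS-2F than in pNSC (-2.59 ± 0.28, adjusted p = 1.07e-05), 8.56-fold lower in pESC-B than in pNSC and 5.11-fold lower in fESC than in fNSC (-2.35 ± 0.28, adjusted p = 2.5e-05).

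Phc1 was higher by all 3 of its probes. The brightest gave 12.21 and 12.09 in piPS-2F, 12.95 and 12.85 in pESC-B and 12.08 and 12.25 in fESC, against 9.88 and 9.90 in pNSC and 9.26 and 9.30 in fNSC. It differed 4.78-fold between piPS-2F and pNSC (2.26 ± 0.13, adjusted p = 1.17e-07), 8.03-fold between pESC-B and pNSC and 7.39-fold between fESC and fNSC. Its other probes gave differences of 2.48 and 2.14 in the first comparison. The 2.14 came from ILMN_3064382, which was detected on no neural array, so it rests partly on values not above background. The call of that probe in fESC against fNSC (1.40) was lost with an offset of 50 (0.76). Phc2 moved the other way, from 10.90 and 10.88 in pNSC to 9.41 and 9.18 in piPS-2F (-1.60 ± 0.14) and from 11.16 and 11.28 in fNSC to 8.91 and 8.80 in fESC (-2.36 ± 0.14, adjusted p = 1.16e-07).

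The catalytic RING proteins differed from each other. Ring1 gave 8.23 and 8.27 in pNSC, 7.07 and 7.22 in piPS-2F and 7.58 and 7.79 in pESC-B, and 8.21 and 8.09 in fNSC against 6.74 and 6.61 in fESC. It was lower in piPS-2F than in pNSC (-1.10 ± 0.14, adjusted p = 4.09e-05) and in fESC than in fNSC (-1.47 ± 0.14), and the difference of pESC-B from pNSC, -0.56 ± 0.14, was under 2-fold. With an offset of 50 in place of 16 the first difference was -0.94.

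Rnf2 (Ring1b), the main PRC1 ligase of embryonic stem cells, parted the pluripotent lines. Its single probe gave 8.72 and 8.79 in fESC, above both neural groups, at 7.64 and 7.33 in fNSC and 7.10 and 7.37 in pNSC. In piPS-2F it was detected on neither array (4.79 and 4.61), and in pESC-B on 1 of 2 (5.75 and 5.25). Rnf2 was therefore higher in fESC than in fNSC (1.27 ± 0.19, adjusted p = 0.000171), at least 3.41-fold lower in piPS-2F than in pNSC (-2.53 ± 0.19, adjusted p = 8.45e-07) and 3.33-fold lower in pESC-B than in pNSC. The first of these differences was 0.85 under median scaling.

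**Figure D3:**
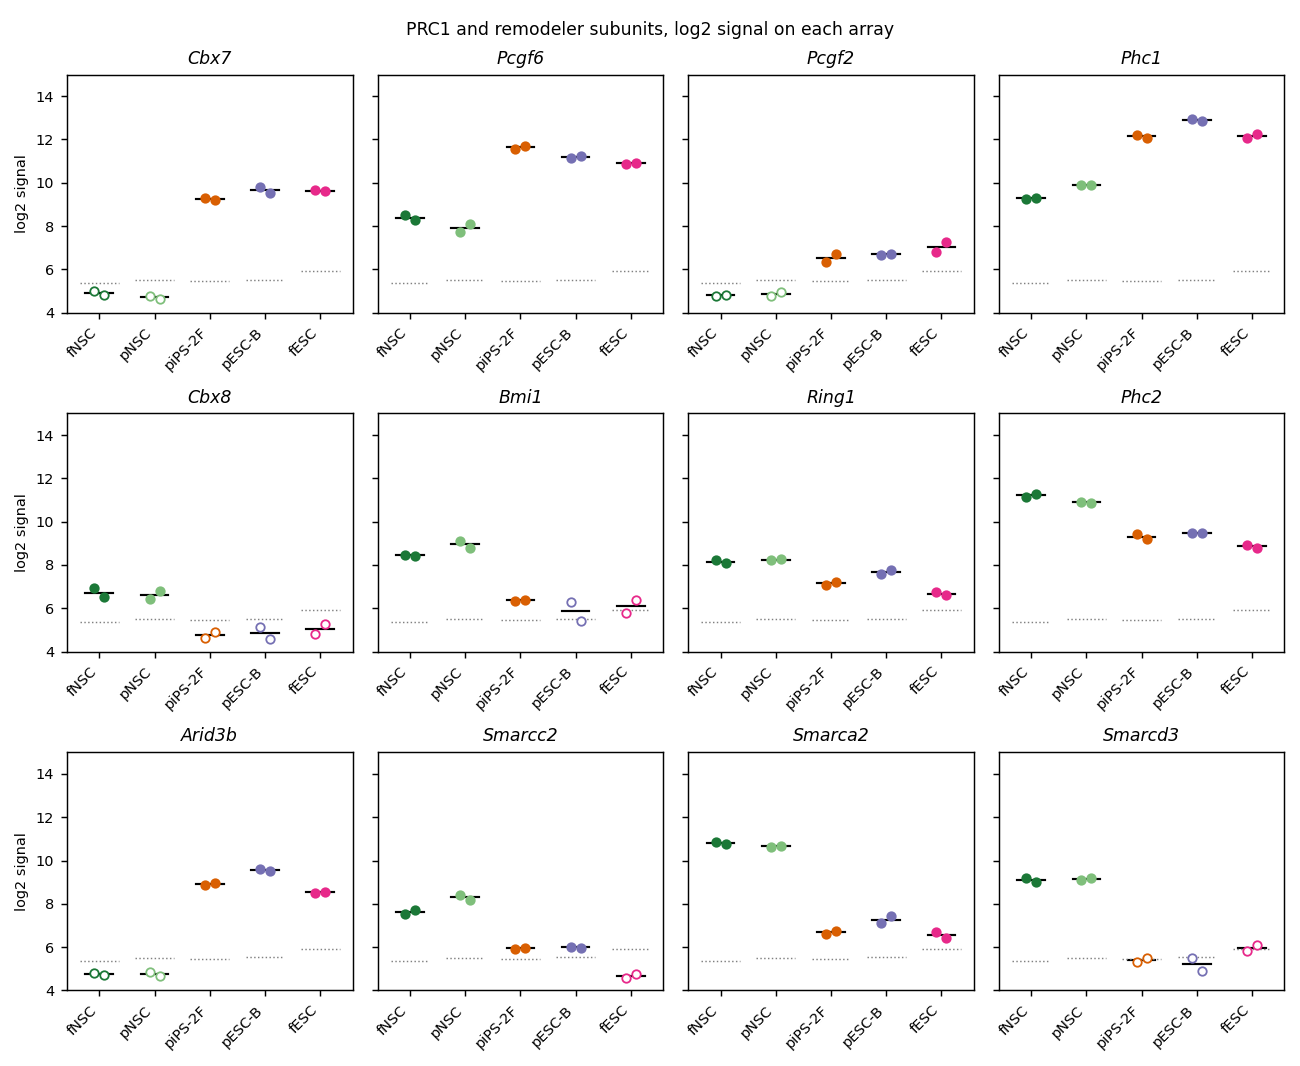
Log2 signal on each of the 10 arrays for 8 PRC1 genes and 4 BAF-related genes; points are arrays (filled where the probe was detected on both arrays of the group, open otherwise), bars are group means and dotted lines give the mean, over the arrays of a group, of the lowest signal of any detected probe. Cbx7, Pcgf6, Pcgf2, Phc1 and Arid3b lie higher in the 3 pluripotent groups, and Cbx8, Bmi1, Ring1, Phc2, Smarcc2, Smarca2 and Smarcd3 lie lower.

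In PRC2, 8 of 12 kept probes from 8 genes were called higher in piPS-2F than in pNSC, 8 in pESC-B than in pNSC and 7 in fESC than in fNSC, and none was lower. The largest difference was that of Mtf2 (Pcl2), an accessory subunit that recruits PRC2 to CG-rich DNA. It gave 10.92 and 10.88 in piPS-2F, 10.18 and 10.20 in pESC-B and 10.87 and 10.74 in fESC, against 6.61 and 6.79 in pNSC and 6.49 and 6.90 in fNSC. No pluripotent array came near a neural one. Mtf2 was 18.4-fold higher in piPS-2F than in pNSC (4.20 ± 0.16, adjusted p = 6.81e-09), 11.2-fold higher in pESC-B than in pNSC and 17.3-fold higher in fESC than in fNSC (4.11 ± 0.16).

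Suz12, a core subunit, gave 13.71 and 13.64 in piPS-2F, 13.18 and 13.24 in pESC-B and 12.70 and 12.87 in fESC, against 10.82 and 10.84 in pNSC and 10.99 and 11.09 in fNSC. It was 7.18-fold higher in piPS-2F than in pNSC (2.84 ± 0.13, adjusted p = 2.1e-08) and 3.34-fold higher in fESC than in fNSC (1.74 ± 0.13). Eed, the subunit that binds the PRC2 mark, was highest in fESC, at 12.01 and 11.98, followed by piPS-2F at 10.45 and 10.44 and pESC-B at 10.10 and 10.13. The neural groups gave 9.90 and 9.77 in fNSC and 9.06 and 9.07 in pNSC. Eed differed by 1.38 ± 0.12 between piPS-2F and pNSC and by 2.16 ± 0.12 between fESC and fNSC (adjusted p = 1.18e-07), and the first of these was 0.85 under median scaling.

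Rbbp7, a histone-binding subunit that PRC2 shares with deacetylase complexes, had 4 kept probes. The 3 brighter ones differed by 2.60 to 2.97 between piPS-2F and pNSC and by 1.32 to 1.70 between fESC and fNSC. One of them (ILMN_1219275) gave 12.18 and 12.17 in piPS-2F, 11.51 and 11.57 in pESC-B, 10.50 and 10.85 in fESC, 9.11 and 9.30 in pNSC and 9.01 and 8.95 in fNSC. The dimmest probe (ILMN_2896823) was not called, with differences of 0.98 ± 0.24 and 0.11 ± 0.24.

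Among the methyltransferases, one probe of Ezh2 (ILMN_1234171) gave 10.88 and 10.73 in piPS-2F, 10.55 and 10.61 in pESC-B, 10.92 and 11.12 in fESC and 10.52 and 10.72 in fNSC, and was lowest in pNSC, at 9.42 and 9.53. It was called higher in piPS-2F than in pNSC (1.33 ± 0.14, adjusted p = 1.1e-05) but not in fESC than in fNSC (0.40 ± 0.14). Under median scaling the first difference was 0.86. The second kept probe of Ezh2 (ILMN_2988572) was dimmer, at 5.89 to 7.25 over the arrays, and gave differences of 0.01 ± 0.32 and 0.71 ± 0.32. One probe of Ezh1 (ILMN_3107974) was detected in piPS-2F (6.03 and 6.45) and pESC-B (6.16 and 5.91) and in no other group, where its values ran from 4.44 to 4.86. Its level in piPS-2F was at least 1.65-fold that in pNSC (1.42 ± 0.17, adjusted p = 2.48e-05), and its difference was 0.82 with an offset of 50. The other Ezh1 probe (ILMN_2773467) was detected on no array of any group, at 4.58 to 5.57.

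Jarid2, which links PRC2 to PRC1-marked nucleosomes, was detected in fESC only, at 8.31 and 8.28, while the other 8 arrays gave 4.41 to 5.48. It was at least 7.60-fold higher in fESC than in fNSC (3.13 ± 0.26, adjusted p = 1.92e-06). It was undetected in both piPS-2F and pNSC, so no fold is given between them. Phf19 (Pcl3), a relative of Mtf2, lay between 6.02 and 7.07 on all arrays and was called in none of these comparisons.

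Among genes of heterochromatin and H3K9 methylation, 6 of 10 kept probes were higher and 1 lower in piPS-2F than in pNSC, and 3 were higher and none lower in fESC than in fNSC. Over all kept probes the shares were 26.8% and 25.7%, then 23.5% and 23.6%, so the 3 higher calls in fESC lay near their share. Trim28 (Kap1), the corepressor that zinc finger proteins use to silence retroviruses, led. It gave 14.01 and 14.18 in piPS-2F, 13.85 and 13.87 in pESC-B and 13.26 and 13.25 in fESC, against 11.27 and 11.09 in pNSC and 10.66 and 10.85 in fNSC. Its difference was 7.54-fold between piPS-2F and pNSC (2.91 ± 0.14, adjusted p = 2.94e-08) and 5.66-fold between fESC and fNSC (2.50 ± 0.14). Setdb1, the H3K9 methyltransferase that Trim28 recruits, differed by 1.04 ± 0.14 and 1.03 ± 0.14 in these comparisons. The differences were 0.33 and 0.63 under median scaling, and 0.97 and 0.93 with an offset of 50. Its calls were also lost without pNSC replicate 2 (0.95) in the first comparison and without fNSC replicate 1 (0.98) or fESC replicate 2 (0.90) in the second. The second call was lost without background correction too (0.997).

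Ehmt1 (GLP) and Ehmt2 (G9a) form a heterodimer that dimethylates H3K9. All 3 kept probes of Ehmt1 were called higher in piPS-2F than pNSC, by 1.36 to 1.73. ILMN_2603660 lost its call under median scaling (0.83) and ILMN_2633604 with an offset of 50 (0.79). The latter was detected on no array of pNSC, fNSC or fESC, so its 1.36 rests partly on values not above background. The third, ILMN_2683675, was also higher in fESC than in fNSC, by 1.02 ± 0.21. That probe gave 10.93 and 11.14 in piPS-2F, 11.08 and 11.23 in pESC-B, 9.97 and 10.17 in fESC, 9.25 and 9.37 in pNSC and 8.71 and 9.39 in fNSC. Its difference between fESC and fNSC was 0.68 without fNSC replicate 1 and 0.93 without fESC replicate 2. It was 0.76 under median scaling and 0.98 with an offset of 50. Neither kept Ehmt2 probe was called, with differences of 0.88 and 0.90 between piPS-2F and pNSC and of 0.46 and 0.53 between fESC and fNSC. Of the HP1 proteins, which bind methylated H3K9, Cbx5 was higher in piPS-2F than in pNSC (1.06 ± 0.17, adjusted p = 0.00021). The difference was 0.35 under median scaling, 0.99 with an offset of 50, 0.96 without pNSC replicate 2 and 0.99 without piPS-2F replicate 2. Cbx1 was not called (-0.02 ± 0.16).

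Cbx3 (HP1 gamma) was lower in the parthenogenetic pluripotent lines. It gave 6.14 and 6.0 in pNSC, 6.16 and 6.65 in fNSC and 7.03 and 6.60 in fESC, and was detected on no array of piPS-2F (4.38 and 4.52) or pESC-B (4.50 and 4.72). Its bound was at least 1.52-fold lower in piPS-2F than in pNSC (-1.61 ± 0.20, adjusted p = 3.35e-05), and the difference was -0.85 with an offset of 50. Between fESC and fNSC it was 0.41 ± 0.20 and not called.

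Of 10 kept probes for histone demethylases, 4 gave higher calls in piPS-2F than in pNSC and 5 in fESC than in fNSC, with none lower in either. Over all kept probes the higher shares were 26.8% and 23.5%. Kdm3a (Jmjd1a), which removes H3K9 methylation, accounted for 3 of the higher calls in each comparison. Its brightest probe (ILMN_2707895) gave 10.97 and 11.29 in piPS-2F, 11.14 and 11.12 in pESC-B, 11.08 and 11.21 in fESC, 9.11 and 9.37 in pNSC and 9.94 and 9.40 in fNSC. Its 3 probes differed by 1.70 to 2.03 between piPS-2F and pNSC and by 1.48 to 1.80 between fESC and fNSC. The probes thus gave nearly the same size in both comparisons.

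Kdm5b, an H3K4 demethylase, gave 7.21 and 7.47 in piPS-2F, 7.45 and 6.55 in pESC-B and 7.73 and 7.27 in fESC, above the 5.60 to 6.17 of the neural arrays. It differed by 1.65 ± 0.27 between piPS-2F and pNSC (adjusted p = 0.000267), or 0.97 under median scaling, and by 1.47 ± 0.27 between fESC and fNSC. Kdm4c (Jmjd2c), an H3K9 demethylase, was called in fESC against fNSC only, by 1.72 ± 0.15 (9.35 and 9.33 against 7.62 and 7.62), and its difference between piPS-2F and pNSC was 0.97 ± 0.15, just under 2-fold. One probe of the H3K27 demethylase Kdm6b (ILMN_3023230) was lower in pESC-B than in pNSC (-1.38 ± 0.19, adjusted p = 7.65e-05), from 9.21 and 8.83 to 7.62 and 7.66, and its other kept probe was not (-0.08 ± 0.15). Kdm1a (Lsd1), Kdm2b and Kdm4a were not called in these 3 comparisons, and Kdm2b was detected in the neural groups only.

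The 3 genes of H3K4 and H3K79 methylation each had a probe that was higher in every pluripotent group than in the neural group of its origin. Wdr5, a scaffold of H3K4 methyltransferases, gave 9.61 and 9.49 in piPS-2F and 9.94 and 9.97 in fESC, against 8.42 and 8.41 in pNSC and 7.83 and 7.92 in fNSC. It differed by 1.13 ± 0.13 between piPS-2F and pNSC, or 0.46 under median scaling, and by 2.08 ± 0.13 between fESC and fNSC (adjusted p = 1.67e-07). Between pESC-B and pNSC it differed by 1.06 ± 0.13, a call lost under median scaling (0.52) and with an offset of 50 (0.99). Ash2l, a subunit of the same enzymes, differed by 1.91 ± 0.13 and 1.79 ± 0.13 by its brighter probe (ILMN_3154222), from 10.17 and 10.06 in pNSC to 11.95 and 12.09 in piPS-2F. Its dimmer kept probe (ILMN_2485900) was not called, at 0.76 ± 0.26 and 0.59 ± 0.26. Dot1l, the H3K79 methyltransferase, gave 8.98 and 8.65 in piPS-2F, 8.53 and 8.53 in pESC-B and 7.65 and 7.98 in fESC, against 6.39 to 6.78 on the neural arrays. Its difference was 2.23 ± 0.18 in the parthenogenetic comparison with piPS-2F and 1.15 ± 0.18 in the female one. The latter was 0.73 under median scaling, 0.94 with an offset of 50 and 0.99 without fESC replicate 2.

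Of 9 kept probes for deacetylases, Sin3 and NuRD, 4 were higher and 1 lower in piPS-2F than in pNSC, and 3 were higher and none lower in fESC than in fNSC. Over all kept probes the shares were 26.8% and 25.7%, then 23.5% and 23.6%. Sin3a, the scaffold of a deacetylase complex, gave 10.85 and 10.98 in piPS-2F, 11.25 and 11.33 in pESC-B and 9.63 and 9.67 in fESC, against 8.27 and 8.14 in pNSC and 7.83 and 7.79 in fNSC. It was 6.55-fold higher in piPS-2F than in pNSC (2.71 ± 0.13, adjusted p = 2.83e-08), 8.52-fold higher in pESC-B than in pNSC and 3.57-fold higher in fESC than in fNSC. Sirt1, an NAD-dependent deacetylase, gave 10.78 and 10.82 in piPS-2F, 10.68 and 10.69 in pESC-B and 10.02 and 10.06 in fESC, against 7.52 and 7.69 in pNSC and 8.30 and 7.73 in fNSC. It was 9.17-fold higher in piPS-2F than in pNSC (3.20 ± 0.18, adjusted p = 9.47e-08) and 4.07-fold higher in fESC than in fNSC.

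The paired deacetylases Hdac1 and Hdac2 carried opposite calls in piPS-2F against pNSC. Hdac1 rose from 9.15 and 9.11 in pNSC to 10.85 and 11.08 in piPS-2F (1.84 ± 0.18, adjusted p = 5.14e-06) and from 9.04 and 9.48 in fNSC to 10.65 and 10.38 in fESC (1.25 ± 0.18). Hdac2 was called lower in piPS-2F, at 11.74 and 11.51 against 12.60 and 12.69 in pNSC (-1.02 ± 0.14), a call lost without piPS-2F replicate 2 (-0.91) or pNSC replicate 2 (-0.98). Hdac2 was not called in pESC-B (12.04 and 12.16) against pNSC, nor in fESC (12.33 and 12.42) against fNSC (12.70 and 12.56). Hdac3 and the NuRD subunit Mbd3 were not called in these 3 comparisons.

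Chd4, the ATPase of NuRD, was read by 3 kept probes that disagreed. ILMN_2697652 gave 9.88 and 9.64 in piPS-2F, 9.28 and 9.78 in pESC-B and 8.08 and 8.29 in fESC, with 8.46 and 8.35 in pNSC and 7.93 and 7.86 in fNSC. ILMN_1236358 was likewise highest in piPS-2F and pESC-B, at 10.50 to 10.72, and ran from 9.12 to 9.83 in the other groups. ILMN_2654822 did not: it was lowest in pNSC (5.25 and 5.73) and piPS-2F (5.98 and 6.53) and gave 7.24 to 7.76 in the other 3 groups. Only the first was called in piPS-2F against pNSC (1.36 ± 0.18, adjusted p = 5.93e-05), and its difference was 0.71 under median scaling.

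Of 13 kept probes from 9 remodeler genes, 6 were called higher and 3 lower in piPS-2F than pNSC, and 3 were higher and 3 lower in fESC than in fNSC. Over all kept probes the shares were 26.8% and 25.7%, then 23.5% and 23.6%, so both fESC counts lay near their shares. The probes lower in both comparisons were those of the BAF subunits Smarca2, Smarcd3 and Smarcc2. Smarca2 (Brm), the ATPase that alternates with Smarca4, gave 10.64 and 10.69 in pNSC and 10.86 and 10.78 in fNSC, against 6.63 and 6.76 in piPS-2F, 7.09 and 7.43 in pESC-B and 6.69 and 6.43 in fESC. All arrays detected it, and the neural arrays lay more than 3 log2 units above the pluripotent ones. It was 15.7-fold lower in piPS-2F than in pNSC (-3.97 ± 0.16, adjusted p = 8.59e-09), 10.6-fold lower in pESC-B than in pNSC and 19.2-fold lower in fESC than in fNSC (-4.26 ± 0.16, adjusted p = 5.68e-09).

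Smarcd3 (Baf60c), known from heart and neural BAF complexes, gave 9.08 and 9.21 in pNSC and 9.18 and 9.02 in fNSC. It was not detected in piPS-2F (5.33 and 5.48) or pESC-B (5.50 and 4.91) and was detected on 1 array of fESC (5.80 and 6.08). It was at least 12.8-fold lower in piPS-2F than in pNSC (-3.74 ± 0.20, adjusted p = 6.19e-08), at least 12.3-fold lower in pESC-B than in pNSC and 8.97-fold lower in fESC than in fNSC. Smarcc2 (Baf170), which embryonic stem cell BAF is known to lack, gave 8.40 and 8.19 in pNSC and 7.54 and 7.73 in fNSC, fell to 5.90 and 5.98 in piPS-2F and 6.01 and 5.97 in pESC-B, and was not detected in fESC (4.58 and 4.78). It was 5.12-fold lower in piPS-2F than in pNSC (-2.36 ± 0.14) and at least 3.30-fold lower in fESC than in fNSC (-2.96 ± 0.14, adjusted p = 3.55e-08).

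Smarcc1 (Baf155), the paralogue of Smarcc2 in embryonic stem cell BAF, was higher in piPS-2F than in pNSC by its brighter probe (ILMN_2641613, 10.25 and 10.31 against 9.14 and 9.10, 1.16 ± 0.12), or by 0.61 under median scaling. Its other probe (ILMN_1217302) gave 0.85 ± 0.22, and neither was called in fESC against fNSC (0.91 and 0.33). Smarca4 (Brg1), the ATPase that alternates with Smarca2, and Smarcb1, a core BAF subunit, were called in none of these comparisons. Arid3b, a DNA-binding protein with the ARID domain of BAF subunits, was detected on no neural array (4.69 to 4.86) and gave 8.89 and 8.97 in piPS-2F, 9.63 and 9.50 in pESC-B and 8.52 and 8.56 in fESC. Its level in piPS-2F was at least 10.6-fold that in pNSC (4.16 ± 0.13, adjusted p = 2.29e-09). Arid3b was at least 16.5-fold higher in pESC-B than in pNSC and at least 8.97-fold higher in fESC than in fNSC (3.80 ± 0.13).

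Chd1, a remodeler that keeps embryonic stem cell chromatin open, was higher by both probes. ILMN_1246790 gave 9.37 and 9.03 in piPS-2F, 8.69 and 9.22 in pESC-B and 7.26 and 7.48 in fESC, against 6.33 and 6.65 in pNSC and 6.13 and 5.79 in fNSC. Its differences were 2.71 ± 0.22 in piPS-2F against pNSC (adjusted p = 1.27e-06) and 1.41 ± 0.22 in fESC against fNSC. Those of ILMN_2958382 were 1.96 and 1.02. The 1.02 fell under 2-fold without fNSC replicate 2 (0.855), without fESC replicate 2 (0.91) and under median scaling (0.65). It also did so with an offset of 50 (0.74) and without background correction (0.93). Smarcd1 (Baf60a), the paralogue of Smarcd3, was higher in piPS-2F than in pNSC by 2 of its 3 probes, by 1.49 ± 0.15 (ILMN_2769786) and 1.10 ± 0.20 (ILMN_1241271), and by none in fESC than in fNSC, where the 3 probes gave -0.63, 0.05 and -0.20. Under median scaling these calls were lost, at 0.69 and 0.41. ILMN_1241271 also gave 0.94 without pNSC replicate 1, 0.79 with an offset of 50 and 0.995 without background correction.

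Both arginine methyltransferases were higher in the pluripotent groups, and all 4 of their kept probes were called in piPS-2F against pNSC and in fESC against fNSC. Prmt5, which methylates histones and splicing proteins symmetrically at arginine, differed by 1.71 to 1.92 over its 3 probes in the first comparison and by 1.50 to 2.06 in the second. Its probe ILMN_2983093 gave 11.44 and 11.39 in piPS-2F, 11.02 and 11.15 in pESC-B and 11.65 and 11.74 in fESC, against 9.47 to 9.79 on the neural arrays. Carm1 (Prmt4), which methylates histone H3 at arginines, gave 8.54 and 8.72 in piPS-2F, 9.13 and 9.18 in pESC-B and 7.75 and 8.01 in fESC, against 6.98 and 7.07 in pNSC and 6.29 and 6.59 in fNSC. It differed by 1.60 ± 0.16 between piPS-2F and pNSC, or 0.82 under median scaling, and by 1.44 ± 0.16 between fESC and fNSC.

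**Figure D4:**
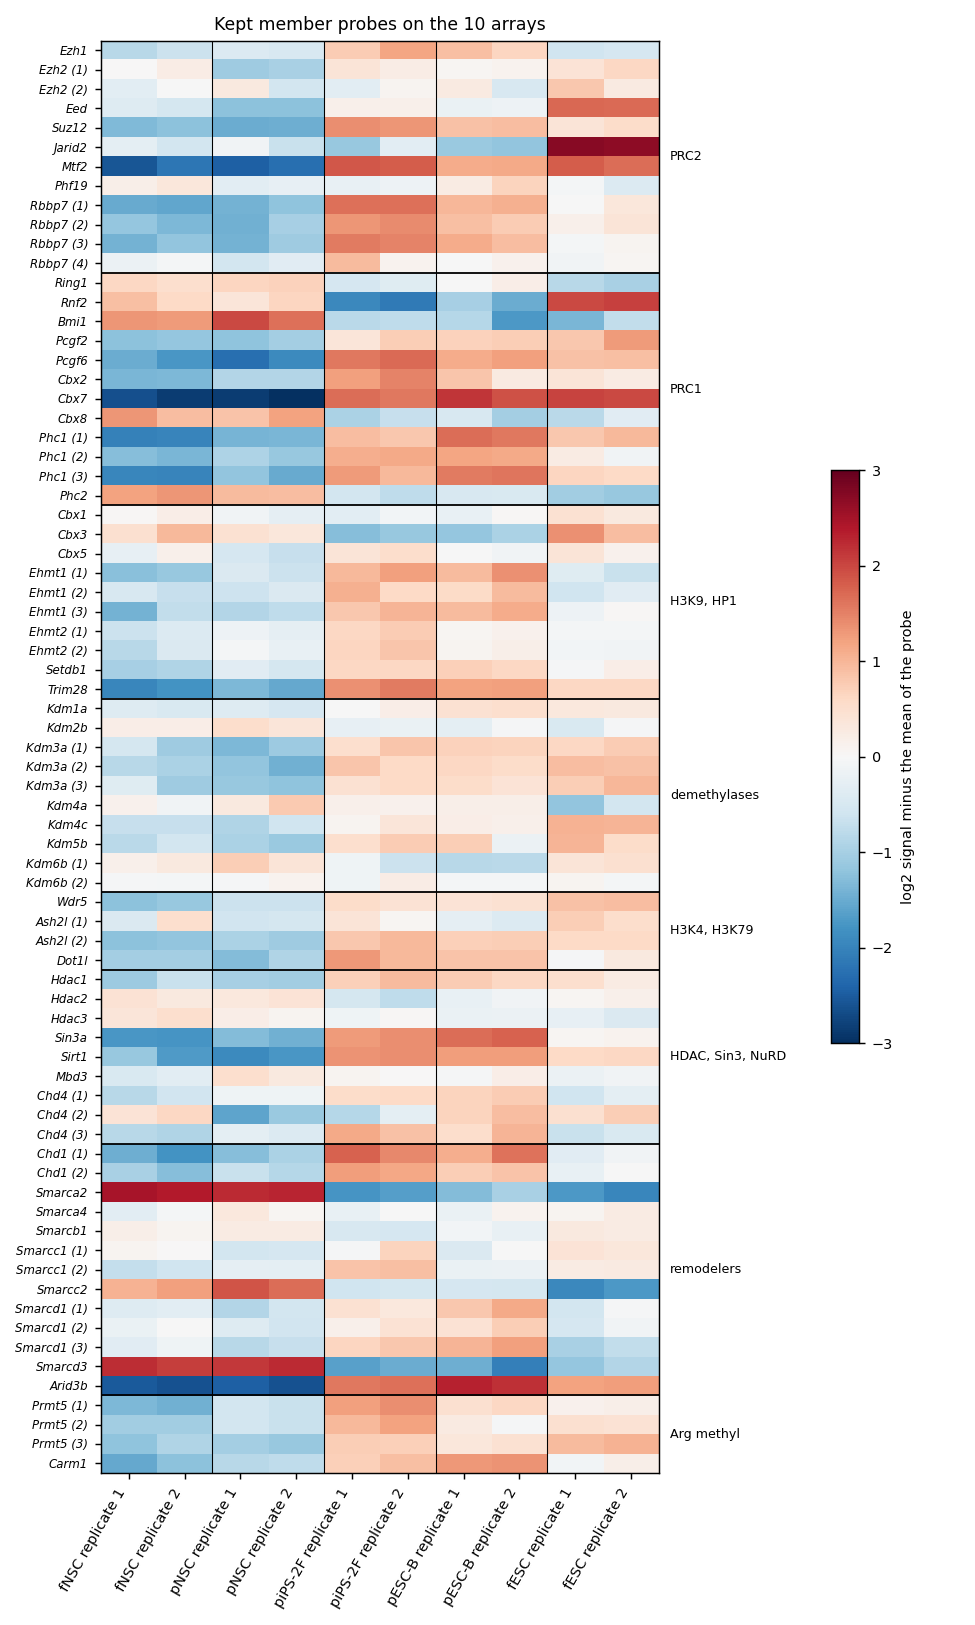
The 74 kept member probes (rows, grouped by role, with numbers where a gene has several) on the 10 arrays (columns); colour gives the log2 signal minus the mean of the probe over the arrays, cut at 3 on either side. The 4 neural columns and the 6 pluripotent columns form separate blocks for Mtf2, Pcgf6, Cbx7, Sirt1, Smarca2, Smarcd3 and Arid3b, while Rnf2 and Cbx3 are low in the piPS-2F and pESC-B columns and Jarid2 is high in the fESC columns only.

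Few of these genes were called between reprogrammed and embryonic cells of parthenogenetic origin. In piPS-2F against pESC-B, 1 of 74 member probes was called higher (1.35%, against 4.47% of all kept probes) and 1 lower (1.35%, against 4.65%). The higher one was Smarcc1 (ILMN_2641613), at 10.25 and 10.31 in piPS-2F against 9.21 and 9.23 in pESC-B (1.06 ± 0.12, adjusted p = 0.000228). The lower one was the Chd4 probe ILMN_2654822, at 5.98 and 6.53 against 7.51 and 7.76 (-1.38 ± 0.23, adjusted p = 0.00159), and the other Chd4 probes were not called. Of the other 72 probes, 19 had an adjusted p under 0.05 with a difference under 2-fold, such as the Prmt5 probe ILMN_2722455 (0.98 ± 0.15) and Rnf2 (-0.80 ± 0.19). Without pESC-B replicate 1 the count of called probes was 4 in place of 2.

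Both parthenogenetic pluripotent lines differed from fESC in a larger set. In piPS-2F against fESC, 18 member probes were higher (24.3%, background 11.9%) and 5 lower (6.76%, background 13%). In pESC-B against fESC, 17 were higher (23%, background 13.6%) and 5 lower (6.76%, background 13.8%). These comparisons share the fESC arrays, and both set dimmer arrays against brighter ones. Under median scaling the splits were 10 to 9 and 12 to 7 (52.6% and 63.2% higher, against 27.2% and 40.3% among all called probes). With an offset of 50 they were 10 to 4 and 8 to 5 (71.4% and 61.5% higher, against 39.2% and 43.4%).

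Rnf2, Jarid2, Cbx3 and Eed were lower in both lines than in fESC. In piPS-2F, Rnf2 was at least 9.78-fold lower than in fESC (-4.05 ± 0.19, adjusted p = 2.84e-07), and in pESC-B it was 9.53-fold lower (-3.25 ± 0.19). Jarid2, undetected in both lines, was at least 7.13-fold lower in piPS-2F (adjusted p = 4.03e-06) and at least 6.83-fold lower in pESC-B (adjusted p = 1.79e-06), bounds that do not order the lines. Cbx3 was at least 2.55-fold and at least 2.44-fold lower, and Eed 2.93-fold and 3.67-fold lower, from 12.01 and 11.98 in fESC. Each of these 4 genes has 1 kept probe. For each, the arrays of both lines lay below those of fESC, which the fold required for a call already ensured given the gaps between duplicates. The fifth lower call in piPS-2F was Chd4 ILMN_2654822 (-1.18 ± 0.23), lost without piPS-2F replicate 1 (-0.91) and with an offset of 50 (-0.91). In pESC-B it was Kdm6b ILMN_3023230 (-1.25 ± 0.19), at 7.62 and 7.66 against 8.84 and 8.94.

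The highest calls in piPS-2F against fESC were Chd1 (1.83 ± 0.22, 3.56-fold), Ehmt1 ILMN_2603660 (1.61 ± 0.19), Smarcd1 ILMN_2769786 (1.58 ± 0.15), Chd4 ILMN_2697652 (1.58 ± 0.18) and Rbbp7 ILMN_2691192 (1.51 ± 0.16). In pESC-B against fESC they were Smarcd1 ILMN_2769786 (1.98 ± 0.15, 3.95-fold), Ehmt1 ILMN_2603660 (1.67 ± 0.19), Sin3a (1.64 ± 0.13), Chd1 (1.58 ± 0.22) and Chd4 ILMN_2697652 (1.34 ± 0.18). Ezh1, undetected in fESC, was also called higher in both lines, but its size is known only as at least 1.25-fold and at least 1.09-fold, so it has no place in these orders. The Ehmt1 probe gave 8.36 and 8.63 in piPS-2F and 8.34 and 8.77 in pESC-B against 7.04 and 6.74 in fESC, and Smarcd1 ILMN_2769786 gave 7.71 and 7.87 and 8.09 and 8.29 against 6.09 and 6.33. Chd4 thus carried opposite calls in piPS-2F against fESC, with ILMN_2654822 lower and its other probes higher. The call of ILMN_1236358 (1.02 ± 0.15) was lost under median scaling (0.92), with an offset of 50 (0.98), without piPS-2F replicate 2 (0.99) and without fESC replicate 1 (0.87).

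**Figure D5:**
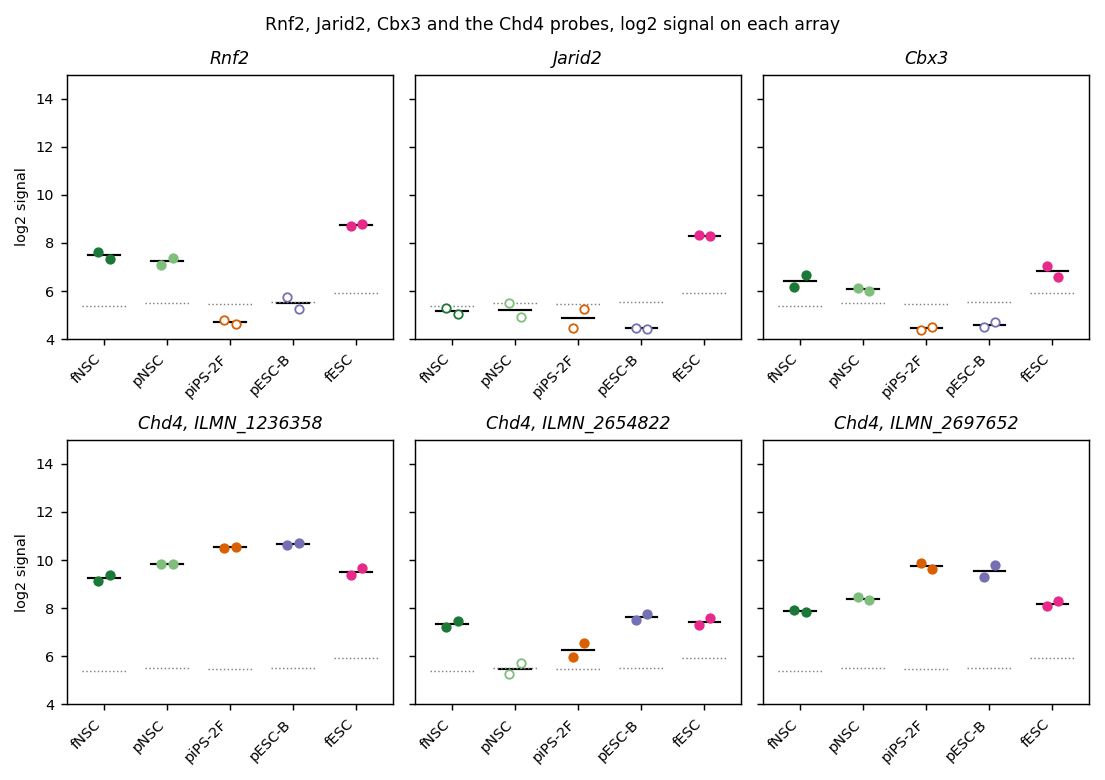
Log2 signal on each array for Rnf2, Jarid2, Cbx3 and the 3 kept probes of Chd4, with symbols as in the plot of PRC1 and BAF genes. The fESC arrays lie at 8.72 and 8.79 for Rnf2 and 8.31 and 8.28 for Jarid2, and the middle Chd4 probe, ILMN_2654822, is low in pNSC and piPS-2F where the other probes are not.

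Between the neural lines, no member probe was higher in pNSC than in fNSC (0 of 74, against 4.79% of all kept probes) and 2 were lower (2.7%, against 6.24%). Both have appeared above: Ezh2 ILMN_1234171 (9.42 and 9.53 against 10.52 and 10.72, -1.14 ± 0.14, adjusted p = 0.000246) and Chd4 ILMN_2654822 (5.25 and 5.73 against 7.24 and 7.46, -1.86 ± 0.23, adjusted p = 0.000208). In each case other kept probes of the gene were not called, and the Ezh2 difference was -0.96 under median scaling. A further 19 probes had an adjusted p under 0.05 with differences under 2-fold, from -0.77 for Eed to 0.79 for Prmt5 ILMN_2720634.

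The interaction contrast asked whether the step from neural to pluripotent cells had the same size in the parthenogenetic pair, piPS-2F minus pNSC, as in the female pair, fESC minus fNSC. The pairs differ in origin, and piPS-2F is an induced line while fESC are embryonic stem cells. Origin, reprogramming and line therefore cannot be told apart. The interaction was called positive for 13 of 74 member probes (17.6%, against 13.9% of all kept probes) and negative for 4 (5.41%, against 14.5%). The 6 largest were Rnf2 (-3.80 ± 0.27, adjusted p = 9.93e-06), Jarid2 (-3.47 ± 0.37), Smarcd1 ILMN_2769786 (2.11 ± 0.22, adjusted p = 7.16e-05), Cbx3 (-2.03 ± 0.28), Rbbp7 ILMN_2691192 (1.44 ± 0.23) and Chd1 ILMN_1246790 (1.30 ± 0.31). Rnf2 fell in the parthenogenetic pair and rose in the female pair, while Rbbp7 and Chd1 were higher in both and by more in the parthenogenetic one. For Rnf2, Jarid2 and Cbx3, which were undetected in piPS-2F, the fitted size rests partly on values not above background. Of the genes with large shared steps, Mtf2 (0.09 ± 0.23), Smarca2 (0.29 ± 0.22) and Bmi1 (-0.24 ± 0.39) had no called interaction. Cbx7 and Arid3b were undetected on all 4 neural arrays, so their steps are bounds and their sizes in the pairs cannot be compared. Under median scaling 3 interactions were positive and 10 negative (23.1% positive, against 31.6% among all called probes), and the piPS-2F arrays were the dimmest of this contrast.

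Probes of the same gene did not always give the same call. Of 13 genes with 2 or more kept probes, the call differed between probes for 6 in piPS-2F against pNSC, 6 in pESC-B against pNSC and 3 in fESC against fNSC. The 3 in fESC against fNSC were Rbbp7, Ehmt1 and Ash2l. Phc1, Kdm3a, Chd1 and Prmt5 were called higher by every kept probe in both piPS-2F against pNSC and fESC against fNSC. With an offset of 50, Phc1 ILMN_3064382 (0.76) and Chd1 ILMN_2958382 (0.74) lost the call in fESC against fNSC. The values of a gene with 1 probe, such as Cbx7, Rnf2 or Jarid2, rest on that probe alone.

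Further genes of the same pathways were counted from lists of 151 genes that are not members, of which 116 had a probe and 102 a kept one, with 146 kept probes. In piPS-2F against pNSC 69 of these probes were higher (47.3%, against 26.8% of all kept probes) and 17 lower (11.6%, against 25.7%), and in fESC against fNSC 47 were higher (32.2%, against 23.5%) and 16 lower (11%, against 23.6%). The shares of all kept probes also stand behind the counts of single lists below. In fESC against fNSC the higher counts for PRC1, heterochromatin, demethylases, H3K4, H3K36 and H3K79 methylation, and deacetylases lay near or below that share. Of the PRC2 genes listed, 4 of 4 kept probes were higher in both comparisons. Epop, which binds PRC2 together with elongin, was 117-fold and 47.3-fold higher (log2 differences 6.87 and 5.56). The PRC1 list gave 7 higher and 2 lower of 14 probes, then 4 and 2. Yaf2, a subunit of variant PRC1, was at least 9.50-fold and at least 5.07-fold lower, and Bcor and L3mbtl2, also subunits of variant PRC1, were higher, Bcor by 2.35 and 1.78 and L3mbtl2 by 1.85 and 2.59.

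Heterochromatin genes gave 8 higher and 0 lower of 18 probes in piPS-2F against pNSC and 4 and 1 in fESC against fNSC, led by the histone chaperone Daxx (2.59 and 1.93). Demethylases gave 5 and 3 of 12, then 2 and 1, with Kdm6a, which removes H3K27 methylation, higher by 2.17 and 1.10 by 1 probe (ILMN_2506528) and Phf2 lower by 5.72-fold and at least 4.87-fold. The H3K4, H3K36 and H3K79 list gave 9 and 2 of 21, then 4 and 3, with Rbbp5, a partner of Wdr5, higher by 2.26 and 1.81. Among deacetylase, Sin3 and NuRD genes, 9 and 5 of 29 were called, then 8 and 4, and the NuRD subunit Mta3 was 32.4-fold and 19.2-fold higher. Of 25 remodeler probes, 12 were higher and 3 lower, then 11 and 3, with the ATPase Ruvbl1 higher by 2.73 and 2.49 by ILMN_2666487. Histone acetyltransferases gave 9 higher and none lower of 13, then 5 and none, with Kat6b 8.92-fold and 5.42-fold higher by ILMN_2678373. The arginine methyltransferases outside the members gave 6 and 2 of 10, then 5 and 2, and both lower calls were probes of Prmt2 (-1.98 and -1.88 in the first comparison).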

How the data were processed

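Expression was measured on 10 single-colour arrays in 5 groups of 2, grouped by their labels. The authors deposited a linear intensity per probe and array, not normalized and already background-subtracted, as 22.9% to 28.3% of an array's values lie below 0, together with a detection p-value per probe and array. A deposited table of processed values, taken as log2 from its range since no source states the base, served as an alternative. The submitters' processing notes name BeadStudio 3.2, RMA and lumi, with no role or order. All 90 member probes matched the RefSeq gene table (GRCm38.p6) by Entrez identifier, with the same symbols, and 1719 of 25697 probes had no symbol. RefSeq start-site windows served for 52 members.

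These intensities went through the neqc function of limma 3.58.1 (R 4.3.3), which fits the background using detection p-values, normalizes by quantiles and takes log2, here with an offset of 16. Probes detected on both arrays of at least 1 group were fitted with 1 mean per group over all 10 arrays (lmFit, eBayes, 5 residual degrees of freedom), in 7 pairwise comparisons and 1 interaction, with Benjamini-Hochberg adjustment over all 13564 kept probes. The test was checked on simulated data with known changes. Quantile normalization gives every array 1 distribution, and differences between dim probes are shrunk by the offset. Only 2 arrays a group limit the precision. Where the dimmer group was detected on neither array, the fold is a bound. It sets the brighter group's mean against a floor taken on each dim array, either what the probe gave or the dimmest detected probe, whichever was higher.

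The members and the further gene lists were chosen with earlier results of these data known. Probes described array by array are the 6 highest and 6 lowest calls of each pairwise comparison, those called the same way in piPS-2F against pNSC and fESC against fNSC, and those whose call differs from another probe of their gene. The 6 largest interactions and up to 3 genes of each further list were also named. Deviations of same-numbered arrays from their group means correlated between -0.10 and 0.099, so the numbers did not pair the arrays. Alternatives were an offset of 50, no background correction, median scaling, the processed values, other detection filters, only the arrays compared, the replicate number as a block, and each array left out in turn.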

Additional observations from a re-analysis of the deposited data

Results flagged for a closer look

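The step from neural to pluripotent cells differed between the parthenogenetic pair (piPS-2F minus pNSC) and the female pair (fESC minus fNSC) for 17 member probes, by limma's interaction contrast. Origin, reprogramming and line cannot be told apart in this contrast. The 4 negative ones were Rnf2 at -3.80, Jarid2 at -3.47, Cbx3 at -2.03 and Kdm6b ILMN_3023230 at -1.16, all on the log2 scale. Jarid2 and Rnf2 were detected in fESC and on no piPS-2F array, and Cbx3 was detected in fESC and both neural groups and on no piPS-2F array. The positive ones among Polycomb genes were Ezh1 at 1.23, Suz12 at 1.10, Pcgf6 at 1.22 and 3 probes of Rbbp7 at 1.08, 1.27 and 1.44. Ezh1 was detected on no array of pNSC, fNSC or fESC. Its step between fESC and fNSC therefore rests on values not above background, and its step between piPS-2F and pNSC rests on them in part. Outside Polycomb they were Smarcd1 at 2.11 (ILMN_2769786) and 1.05 (ILMN_1241271), Chd1 at 1.30, Ehmt1 ILMN_2633604 at 1.26, Sirt1 at 1.17, Dot1l at 1.08 and Chd4 ILMN_2697652 at 1.07. The Ehmt1 probe, like that of Ezh1, was detected on no array of pNSC, fNSC or fESC. With an offset of 50 the calls of Ehmt1 (0.74), Ezh1 (0.74), Smarcd1 ILMN_1241271 (0.75) and Dot1l (0.96) were lost. Without background correction those of Ezh1 (0.84) and Smarcd1 ILMN_1241271 (0.95) were lost.

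All 4 piPS-2F and pESC-B arrays were dimmer than the other 6, and the part of brightness in these differences was not tested. Under median scaling the calls of Suz12 (0.69), Pcgf6 (0.97), Ezh1 (0.78), Sirt1 (0.95), Dot1l (0.77), Chd1 (0.97), Ehmt1 (0.85), Chd4 (0.84), Rbbp7 ILMN_2691187 (0.87) and Smarcd1 ILMN_1241271 (0.72) were lost. Without single arrays, Sirt1 (0.89 without fNSC replicate 1), Kdm6b (-0.91 without piPS-2F replicate 2 and -0.98 without pNSC replicate 1), Dot1l (0.89 without pNSC replicate 1, 0.91 without piPS-2F replicate 1 and 0.92 without fESC replicate 1) and Chd4 (0.94 without piPS-2F replicate 1 and 0.96 without fESC replicate 1) fell under 2-fold. So did Rbbp7 ILMN_2691187 (0.99 without fNSC replicate 1, 0.85 without pNSC replicate 1 and 0.95 without fESC replicate 1) and Smarcd1 ILMN_1241271 (0.89 without pNSC replicate 1, 0.98 without piPS-2F replicate 1 and 0.79 without fESC replicate 1).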

How the results depend on the processing

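No called difference of a named probe changed sign under any alternative run. The counts of called member probes stayed within 1.5 times their value in every setting run, with these exceptions, for which the cause was not tested. With an offset of 50 the count was 14 in place of 23 for piPS-2F against fESC and 13 in place of 22 for pESC-B against fESC, and over all kept probes 2242 in place of 3375 for piPS-2F against fESC, 660 in place of 1237 for piPS-2F against pESC-B and 933 in place of 1497 for pNSC against fNSC. Median scaling left 1 of 2 calls in pNSC against fNSC, and the authors' processed values gave 4 in place of 2 in piPS-2F against pESC-B. Leaving out each array in turn gave 2 to 4 calls there, 51 to 56 for piPS-2F against pNSC, 40 to 43 for fESC against fNSC and 36 to 41 of the calls shared by both. The replicate block changed no count of member probes (52 for piPS-2F against pNSC and 17 for the interaction). Under median scaling the share of higher calls among all called probes was 27.2% for piPS-2F against fESC (main 47.8%), 31.6% for the interaction (48.9%) and 35.6% for piPS-2F against pESC-B (49%). Dim probes near the detection limit, such as Cbx3, Ezh1 and Ehmt1 ILMN_2633604, lost calls with the larger offset, which shrinks their differences by construction. So did clearly detected probes with differences just over 2-fold. Examples were Setdb1 in piPS-2F against pNSC (0.973) and Rbbp7 ILMN_2691192 in pESC-B against fESC (0.997).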
